A study of Mus musculus with 8 samples.

Results

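The 8 arrays of the series came from 4 numbered pairs of samples, and the comparison made here set the 4 arrays of pairs 1 and 2 against the 4 arrays of pairs 3 and 4, independently of the drug that was tested. The cells were ATCL7, an immortalized line from a mouse adrenocortical tumour, so all 8 samples are of 1 line. Each pair held 1 vehicle sample (0.01% DMSO) and 1 sample treated with 0.5 µM BIO, a brominated indirubin oxime that inhibits glycogen synthase kinase 3 and so stabilises β-catenin, the effector of Wnt signalling. Every sample held 250000 cells, and all were kept for 24 h in DMEM:F12 with insulin, transferrin and selenium, antibiotics, and fetal bovine and horse serum at 0.025% each. RNA was read on whole-transcript mouse gene arrays, and the deposited log2 values covered 20719 genes.

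Each set of pairs therefore held 2 vehicle and 2 BIO arrays. The labels do not say what pairs 1 and 2 share, nor whether the pairs were separate cultures. The array numbers run in the order of the pairs within each treatment, so culture, day, passage and array position cannot be told apart, and no label calls the difference a culture state. The sets are named here by their pair numbers alone. They were chosen from these arrays: after the mean of its treatment was taken from each array, arrays of different pairs in the same set and treatment correlated across genes at 0.052 to 0.345, and the vehicle and BIO arrays of a pair at 0.385 to 0.617. Arrays of opposite sets correlated at −0.71 to −0.45 within a treatment and at −0.504 to −0.214 between treatments. Taking the mean of 4 arrays from each by itself makes independent arrays of 1 treatment correlate at −0.333, so the values within a treatment are to be read against that. Differences between the sets are therefore given as a description with no p-value, whereas the difference in BIO response between the sets is another contrast and was tested.

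The values themselves were similar on all arrays. Array medians lay between 5.7 and 5.73 log2, and any 2 arrays correlated at 0.988 or above across genes, which are not independent replicates. The number of arrays limits the precision. Of 9 adrenal cortex markers, 7 had a mean above 6 log2, among them the steroidogenic enzyme gene Cyp11a1 and Nr5a1, the transcription factor of steroidogenic cells. Nr5a1 lay between 9.17 and 9.39 on the vehicle arrays and between 8.73 and 8.9 on the BIO arrays, and the sets overlapped. The leukocyte marker Ptprc stayed between 4.46 and 4.73 on all 8 arrays, and 0 of 9 endothelial, 0 of 7 medullary and 0 of 6 adipocyte markers had a mean above 6 log2. However, 2 of 10 leukocyte, 3 of 8 epithelial and 2 of 8 fibroblast markers did, with highest means of 7.48, 7.97 and 6.6. In bulk RNA, fewer cells of a kind and less RNA per cell cannot be told apart.

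A gene counts below as different between the sets when, within vehicle and again within BIO, both arrays of 1 set lay above both arrays of the other in the same direction, and the difference averaged over vehicle and BIO was at least 1.5-fold (0.585 log2). By that rule 272 of the 20719 genes differed (1.31%). Of these, 215 were higher in pairs 1 and 2 (1.04%) and 57 were higher in pairs 3 and 4 (0.275%). With no limit on size, 2074 genes were separated upward in pairs 1 and 2 (10%) and 2075 downward (10%). The excess toward pairs 1 and 2 was thus in the larger differences: 56 genes against 6 reached 2-fold, and 15 against 1 reached 3-fold. The median difference over all genes was −0.004 log2, and its SD over genes was 0.169. Just inside the limit lay Cachd1 (0.59 log2) and Mfsd4a (−0.59), and just outside it the peptide transporter gene Tap2 (0.58) and the protocadherin gene Pcdhb21 (−0.58). Of the 5179 genes with the lowest means, 0 counted as different. In the 3 groups of 5180 genes above them, in order of rising mean, 1.56%, 3.09% and 0.598% did.

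The pairs within a set were not alike. Among the 215 genes higher in pairs 1 and 2, the pair with the lowest mean was pair 4 for 194 and pair 3 for 21, and the median gap between pairs 3 and 4 was 0.28 log2. Among the 57 genes higher in pairs 3 and 4, pair 4 was the highest for 51 and pair 2 the lowest for 52. With pair 4 left out, 153 of the 215 and 29 of the 57 still met the rule. Without pair 2, 173 and 27 did. Without pair 1, 202 and 55 did, and without pair 3, 212 and 56. The genes higher in pairs 3 and 4 thus rested more on pairs 2 and 4 than on the other two.

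**Figure D1:**
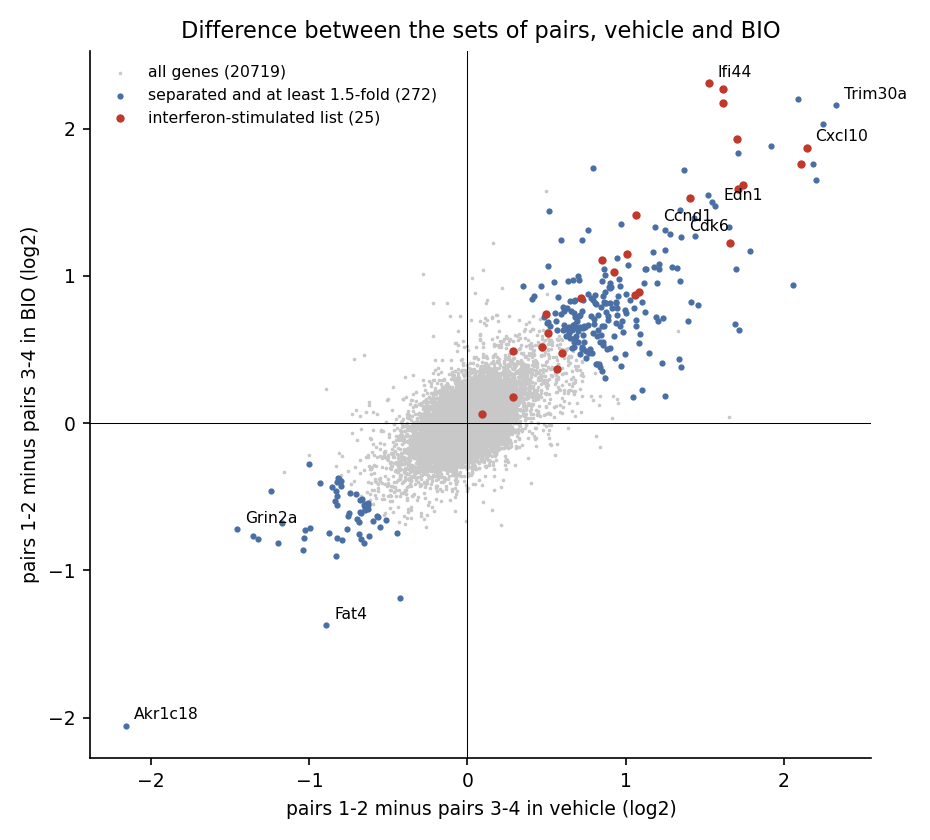
Difference between the sets in vehicle (horizontal) and in BIO (vertical), in log2, 1 point a gene. The 272 genes that met the rule lie in the upper right (215) and lower left (57). Of the 25 genes of the interferon-stimulated list, in red, 24 were separated upward in pairs 1 and 2, and 18 met the rule. Mx1 was the exception, not separated, at 0.08 log2. The correlation over all genes was 0.68.

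Genes of the type I interferon response made up the largest named group among those higher in pairs 1 and 2. In that response, interferons bind the receptor of Ifnar1 and Ifnar2, the kinases Jak1 and Tyk2 switch on a complex that includes Stat2 and Irf9, and it binds a response element in the promoters of interferon-stimulated genes. The induced proteins degrade or trap viral RNA, present antigen on MHC class I and raise the sensors that detect foreign nucleic acid. Irf7, itself induced, drives further interferon transcription. The 7 lists counted here are the interferon-stimulated genes, the transcription factors, the nucleic acid sensors, the brakes of the response, MHC class I, the 2-5A synthetases with RNase L and the interferon-induced GTPases, without the ligands, receptors and MHC class II. They held 91 of the measured genes (0.439%). Among them were 42 of the 215 genes higher in pairs 1 and 2 (19.5%) and 0 of the 57 genes higher in pairs 3 and 4. Trim30a, Ccl5 and Sp100, described below with the effectors, stand on none of these lists and are outside the 42. Of those lists 6 were written after values had been seen, so these shares describe the genes and support nothing further.

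The promoters of 4 members are shown because they hold the letters of that response element. They are the members of the interferon-stimulated list with the greatest difference whose RefSeq promoter window (GRCm38.p6) holds the core motif GAAANNGAAA on either strand. Each is the 250 bases before the gene's start, 5′ to 3′ on the gene's strand, with the matched bases in capitals. In Oas1a 2 matches overlap, and in Ifit1 and Rsad2 the match is on the opposite strand and so reads as its reverse complement.
Cxcl10, chr5:92348890-92349139, minus strand: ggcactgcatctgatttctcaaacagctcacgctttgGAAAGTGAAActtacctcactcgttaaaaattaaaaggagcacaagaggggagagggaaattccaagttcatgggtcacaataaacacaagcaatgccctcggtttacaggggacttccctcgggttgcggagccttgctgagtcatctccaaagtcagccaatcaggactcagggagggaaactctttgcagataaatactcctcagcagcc
Ifit1, chr19:34640639-34640888, plus strand: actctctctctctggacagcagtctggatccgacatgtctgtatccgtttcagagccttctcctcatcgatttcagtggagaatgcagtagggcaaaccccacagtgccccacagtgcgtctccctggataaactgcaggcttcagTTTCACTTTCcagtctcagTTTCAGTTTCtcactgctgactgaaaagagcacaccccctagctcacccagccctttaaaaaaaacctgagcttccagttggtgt
Oas1a, chr5:120907526-120907775, minus strand: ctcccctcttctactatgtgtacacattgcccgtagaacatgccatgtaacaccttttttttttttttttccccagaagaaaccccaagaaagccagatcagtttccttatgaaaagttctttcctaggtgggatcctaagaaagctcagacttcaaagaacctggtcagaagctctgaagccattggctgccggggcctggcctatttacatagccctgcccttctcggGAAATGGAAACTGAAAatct
Rsad2, chr12:26456453-26456702, minus strand: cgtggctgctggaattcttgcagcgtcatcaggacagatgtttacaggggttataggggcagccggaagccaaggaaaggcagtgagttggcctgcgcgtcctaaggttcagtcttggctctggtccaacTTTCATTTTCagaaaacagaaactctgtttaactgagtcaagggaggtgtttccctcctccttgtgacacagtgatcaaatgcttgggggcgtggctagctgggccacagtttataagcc
The match lies 213 to 204 bases before the start in Cxcl10 and 120 to 111 bases before it in Rsad2. Ifit1 has matches at 104 to 95 and at 85 to 76 bases before the start. The Oas1a matches cover bases 20 to 5 before it.

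Over windows of 250 bases before to 50 after the start, the motif occurred in 943 of 27025 promoters (3.49%), in 542 of the 15866 measured genes with a window (3.42%), and in 12 of the 20 members of the interferon-stimulated list with one (60.0%). It occurred in 29 of 157 genes higher in pairs 1 and 2 (18.5%) and in 1 of 36 genes higher in pairs 3 and 4 (2.78%). Among the genes higher in pairs 1 and 2 that stood on no interferon list, 14 of 127 held it (11.0%). The genes on no list include effectors such as Trim30a, Ccl5 and Sp100, so they are not a group without interferon genes. A match describes these letters only.

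The 25 measured members of the interferon-stimulated list had a median difference of 0.99 log2 between the sets, where the median of all genes was −0.004. Of the 25, 24 were separated upward in pairs 1 and 2, 18 met the rule and 0 were separated downward. The list's median level in vehicle was 9.78 and 9.74 log2 in pairs 1 and 2, 8.74 in pair 3 and 8.11 in pair 4. In BIO it was 8.77 and 8.72 in pairs 1 and 2, 8.31 in pair 3 and 7.15 in pair 4. Pair 4 was the lowest pair for all 25 genes. The median difference was 0.61 log2 without pair 4 and 1.49 without pair 3, and it was 0.97 and 1.06 without pair 1 or 2. The listed leukocyte markers did not move with it. The 10 of them summed to 47.4 to 48.7 log2 on the arrays of pairs 1 and 2 and to 47.6 to 49.4 on those of pairs 3 and 4. Of the 10, 2 had a mean above 6 log2 (Cd68 and Cd14) and 0 were separated. Mpeg1, a macrophage gene outside that list and named after its values were seen, met the rule (1.26, or 0.70 without pair 4). Of the 31 markers of fibroblasts, epithelium, endothelium and adipocytes, Pdpn met the rule (0.70, or 0.46 without pair 4), and Krt19 (0.58) and Kdr (0.51) were separated upward, and Plvap (−0.23) downward. Their part in the interferon difference was not tested.

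No gene of an interferon itself met the rule. All 21 measured ligand genes had differences between −0.14 and 0.13 log2 and 0 were separated. Ifnb1, the interferon made by most cell types, read 4.01, 4.1, 4.03 and 4.17 log2 in vehicle and 3.79, 3.86, 3.97 and 3.95 in BIO (pairs 1 to 4), so the sets overlapped in vehicle and lay slightly apart, lower in pairs 1 and 2, in BIO. Its low reading, with no detection call in the files, does not tell whether any transcript was present. The 8 receptor and Janus kinase genes ranged from −0.16 to −0.02, and 3 of them, Ifnar1, Jak2 and Tyk2, were separated downward at under 1.5-fold.

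Among the transcription factors Irf7 stood out. It read 11.09 and 10.84 log2 in vehicle in pairs 1 and 2, 9.74 in pair 3 and 8.96 in pair 4, and 10.48, 10.13, 9.11 and 7.15 in BIO. Both arrays of pairs 1 and 2 were thus above both of pairs 3 and 4 in each treatment, and the averaged difference was 1.90 ± 0.39 log2 (SE over 4 pair means, 2 in each set), or 3.72-fold. Without pair 4 it was 1.21. Stat2 (0.54) and Irf9 (0.38), of the complex that binds the response element, were separated in the same direction at less than 1.5-fold. Irf3, the factor that starts interferon transcription and is held ready in resting cells, differed by −0.07 log2 and was not separated.

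Of 11 nucleic acid sensors and their partners, 3 met the rule. Sting1, the adaptor of the cytosolic DNA sensing pathway, read 9.49, 9.34, 8.33 and 7.91 log2 in vehicle and 9.05, 9.21, 8.32 and 7.81 in BIO, a difference of 1.18 ± 0.14. The 2 others were the RNA helicases Dhx58 (0.97, or 0.61 without pair 4) and Ifih1 (0.62, or 0.36). The RNA sensor genes Ddx58 (0.56) and Tlr3 (0.55) lay just below the limit. Cgas, the enzyme that signals to Sting1, differed by −0.01 and the RNA pathway adaptor Mavs by −0.12. Of 8 genes that restrain the response, 3 were higher in pairs 1 and 2. They were Isg15, a ubiquitin-like modifier (1.24 ± 0.23), Usp18, which removes it and blocks the receptor (0.78), and Adar, the editor of double-stranded RNA (0.62). Without pair 4 Usp18 and Adar were at 0.41 and 0.43, below the limit. Socs1 and Socs3, inhibitors of Janus kinases, lay at 0.06 and −0.06.

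The effectors held the greatest differences of the whole comparison. Trim30a, of a family of ubiquitin ligases, read 9.35, 8.95, 7.43 and 6.21 log2 in vehicle and 8.28, 7.87, 6.68 and 5.15 in BIO. Its difference was 2.24 ± 0.40 log2, or 4.74-fold, the greatest of all named genes, with no overlap of the sets. Without pair 4 it was 1.55, and without pair 3 it was 2.93. Ccl5, a chemokine for T cells, read 10.37, 10.18, 8.29 and 7.77 in vehicle and 8.71, 8.15, 6.71 and 6.08 in BIO. The difference of 2.14 ± 0.19 moved little when any pair was left out (1.85 to 2.43). Cxcl10, another chemokine, read 9.7, 9.37, 7.64 and 7.14 in vehicle and 7.95, 8.47, 6.61 and 6.07 in BIO, a difference of 2.01 ± 0.15. The greatest gap between arrays of the same set and treatment was 0.62 for Ccl5, 0.55 for Cxcl10 and 1.53 for Trim30a.

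As for Trim30a, pair 3 lay between pairs 1 and 2 and pair 4 for other effectors. Ifit1, which binds foreign RNA at its 5′ end, read 9.99, 10.08, 9.11 and 7.73 log2 in vehicle and 8.74, 8.68, 7.49 and 5.38 in BIO. The averaged difference was 1.94 ± 0.48, and 1.07 without pair 4. Ifi44 followed it, at 1.92 ± 0.52, and at 0.98 without pair 4. Rsad2, an antiviral radical enzyme, differed by 1.82 ± 0.36, and by 1.17 without pair 4. The remaining genes among the 15 greatest were Oas1g (2.15), Sp100 (1.97), a nuclear body protein, Oas1a (1.94), the GTPase gene Tgtp1 (1.93), Oasl1 (1.90), Ifi205 (1.77), Gbp3 (1.68) and Ifit3 (1.65). Without pair 4 each of these was smaller, from 1.15 (Ifit3) to 1.42 (Oas1a), with Oas1g at 1.38.

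Whole families moved unevenly. Of 13 genes of 2-5A synthetases and the RNase they activate, 8 met the rule and 10 were separated upward, with a median of 0.86 log2. Oas1a read 8.78, 8.6, 7.13 and 6.03 in vehicle and 7.96, 7.66, 6.54 and 5.57 in BIO. Oas1e and Oas1h of the same cluster differed by 0.05 and 0.01. Of 18 interferon-induced GTPase genes, 9 met the rule (5 without pair 4), with a median of 0.64 (0.35 without pair 4 and 0.94 without pair 3). Mx2 differed by 1.44 and Gvin1 by 1.52, whereas Mx1 read between 4.49 and 4.71 on all 8 arrays and was not separated. Near-identical copies in the Oas1, Ifit3, Tgtp, Trim30, H2-Q and protocadherin families can share probe signal, so their single values are less certain.

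MHC class I genes, which show peptides to cytotoxic T cells, were higher in pairs 1 and 2 as a group. Of 24 measured genes, 11 met the rule, 21 were separated upward and 0 downward, with a median of 0.58 log2. H2-K1, a classical heavy chain, read 11.25, 11.0, 10.31 and 9.52 in vehicle and 11.36, 11.27, 10.65 and 9.88 in BIO, a difference of 1.13 ± 0.22 (1.52 without pair 3 and 0.75 without pair 4). The immunoproteasome subunits Psmb8 (1.47) and Psmb9 (1.28), the peptide transporter subunit Tap1 (0.96) and the class I regulator Nlrc5 (0.71, or 0.5 without pair 4) were higher too. B2m, the shared light chain, was separated at 0.25. Of 8 MHC class II genes, 0 met the rule and their differences ran from −0.08 to 0.14. The lists of transcription factors, synthetases, GTPases, MHC genes, sensors, ligands, receptors and brakes were all written after values had been seen.

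**Figure D2:**
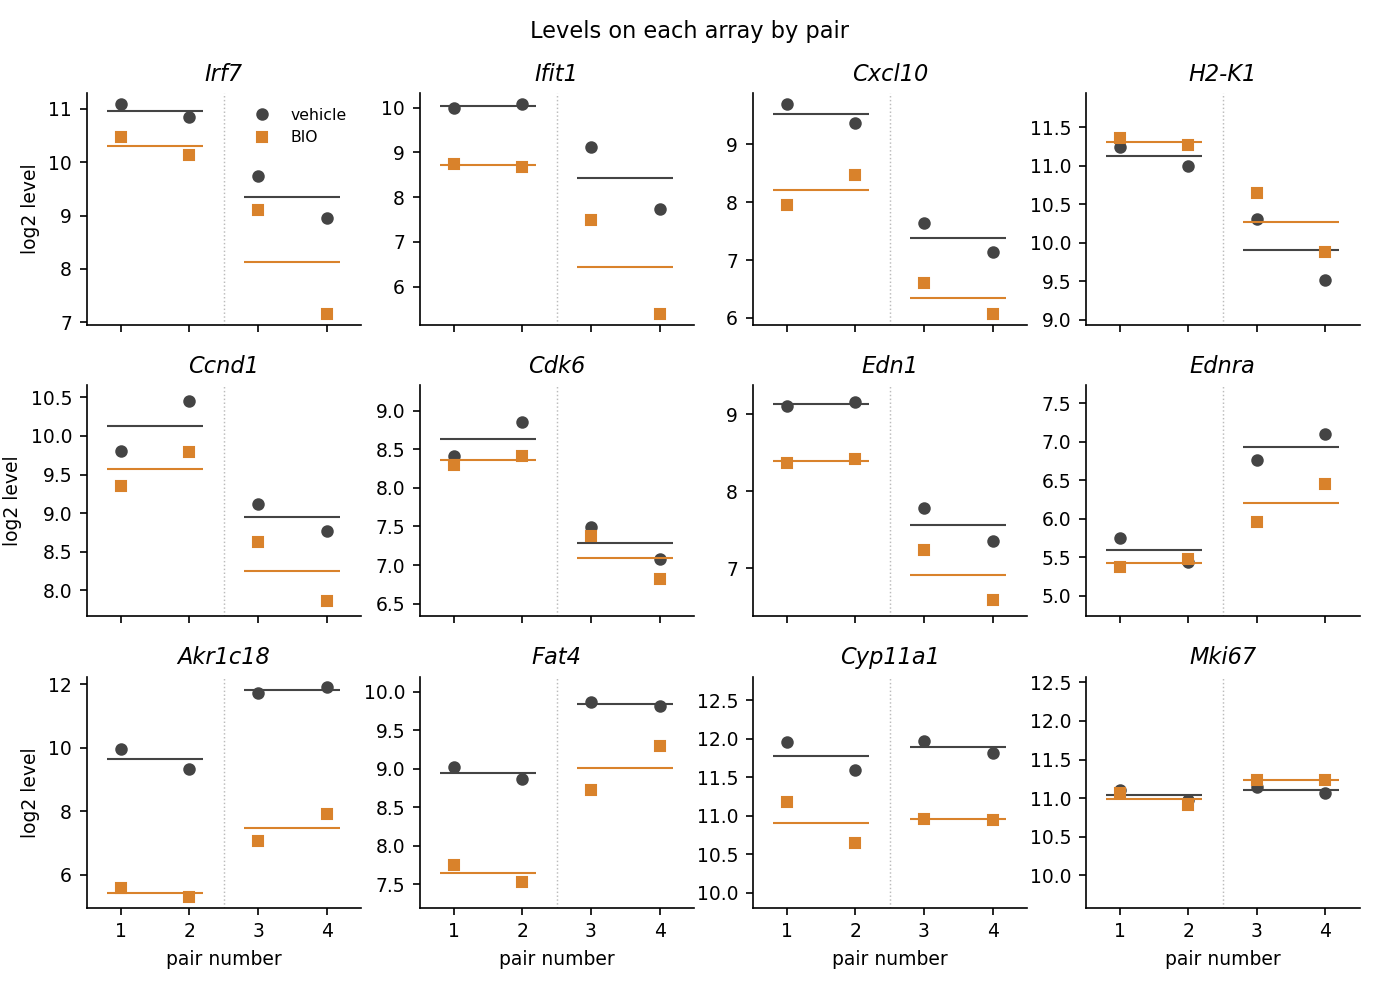
Log2 level of 12 genes (vertical; each panel has its own range) on each array by pair number (horizontal), vehicle as grey circles and BIO as orange squares. Horizontal lines are the means of 2 arrays. Irf7, Ifit1, Cxcl10, H2-K1, Ccnd1, Cdk6 and Edn1 are higher in pairs 1 and 2 in both treatments and Ednra, Akr1c18 and Fat4 are lower, while Cyp11a1 overlaps in both treatments and Mki67 in vehicle only.

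The drug moved these groups in different ways. BIO lowered 21 of the 25 interferon-stimulated genes over all pairs and raised 1 (limma adjusted p under 0.05; 15.6% of all genes fell and 17.0% rose), with a median change of −0.66 log2 in pairs 1 and 2 and −0.79 in pairs 3 and 4. Of the 24 MHC class I genes, 10 rose and 4 fell. Psmb9, for example, was higher in pairs 1 and 2 and rose with BIO by 0.54 log2 in both sets, whereas Ccl5 was higher in pairs 1 and 2 and fell with BIO (−1.84 and −1.63).

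The deposited table also gave the authors' results of another experiment, headed 3 Wnt against 4 SF1 and not described further, with no array values. In the authors' deposited table, 34 of the 42 interferon-list genes higher in pairs 1 and 2 were lower in Wnt at an unadjusted p under 0.05 (81.0%), where 1269 of all genes were (6.12%), and 0 were higher, where 1402 of all genes were (6.77%). The authors' deposited ratios of Wnt over SF1 were 0.12 for Irf7, 0.194 for Oas1a and 0.268 for Rsad2, and the median of the 42 was 0.32. By the authors' deposited values, 32 of the 173 genes higher in pairs 1 and 2 that stood on no interferon list were lower in Wnt (18.5%) and 25 were higher (14.5%). The 32 include the effectors Ccl5, Trim30a and Sp100, with authors' deposited ratios of 0.13, 0.301 and 0.304. Of the 57 genes higher in pairs 3 and 4, the authors' deposited table had 5 lower (8.77%) and 10 higher (17.5%).

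Some regulators of the G1 phase of the cell cycle also differed, on a list written after values had been seen. Of its 13 genes 4 met the rule, 5 were separated upward and 4 downward, and the median was −0.0 log2. D-type cyclins with Cdk4 or Cdk6 phosphorylate the retinoblastoma protein, which frees the genes of DNA replication. Ccnd1 read 9.8, 10.46, 9.11 and 8.77 log2 in vehicle and 9.35, 9.79, 8.62 and 7.86 in BIO. All arrays of pairs 1 and 2 were above those of pairs 3 and 4 of the same treatment, by 1.26 ± 0.22 log2, or 2.39-fold. Cdk6 read 8.42, 8.86, 7.49 and 7.08 in vehicle and 8.3, 8.42, 7.38 and 6.81 in BIO, a difference of 1.31 ± 0.16. Ccnd2 (0.98) and the inhibitor gene Cdkn1c (0.68) were higher too, whereas Cdk4 (−0.00), Ccnd3 (0.09), Cdkn1a (−0.02) and Cdkn2a (−0.07) were not. Cdkn1b (−0.14), Cdkn2c (−0.09), Cdkn2d (−0.22) and Rb1 (−0.20) were separated downward at small size.

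No listed gene of DNA replication or mitosis met the rule, which 1.31% of all genes met, and the separated shares were near or below the 10% of all genes in each direction. Of 24 DNA replication genes 2 were separated upward and 3 downward (6 without pair 2 or 3), and the median was −0.01 log2. Of 22 mitosis genes 0 were separated upward and 2 downward, with a median of −0.03. Without pair 1, 10 of the 22 mitosis genes were separated downward, with a median of −0.07. Without pair 4 it was 7, and without pair 2, 5 were separated upward and 3 downward, with a median of 0.02. Fewer arrays had to be apart with a pair left out. Such counts, here and below, are therefore not to be read against the 10% of all genes. Mki67, a marker of cycling cells, read 11.11, 10.97, 11.14 and 11.06 log2 in vehicle and 11.06, 10.91, 11.24 and 11.24 in BIO, a difference of −0.16. The sets overlapped in vehicle, and in BIO both arrays of pairs 1 and 2 were lower (−0.25). Of 12 clustered histone genes 0 met the rule. The histone gene H2ac1, which is not on that list and was named after its values were seen, met it at 0.71.

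Of 14 feedback genes of the ERK kinase pathway, which growth factors switch on, 7 were separated upward, where 10% of all genes were, 0 downward and 7 in neither direction, with a median of 0.35 log2. Of the 14, 2 met the rule, or 5 without pair 1, 4 without pair 3 and 1 without pair 2. Dusp6, the phosphatase that switches ERK off, read 10.63, 10.73, 10.25 and 10.09 in vehicle and 8.98, 9.04, 8.14 and 7.75 in BIO, a difference of 0.79 ± 0.10. Of 18 immediate early genes, 7 were separated upward, 0 downward and 11 in neither direction. Without pair 2, 14 were separated upward, and without pair 3, 11 were, though fewer arrays then had to be apart. The median was 0.30 log2, and 0.11 without pair 1. Fos (0.39) and Egr1 (0.28) were not separated, and Atf3 reached 0.59 (0.48 without pair 1). Of 18 ribosome biogenesis genes, 12 were separated upward and 0 met the rule, with a median of 0.20. The growth factor genes Nrg1 (0.86) and Hbegf (0.61; 0.4 without pair 2) were higher in pairs 1 and 2. Vegfd (−0.65) and Fgf11 (−0.60) were higher in pairs 3 and 4, and stood at −0.33 and −0.43 without pair 2.

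**Figure D3:**
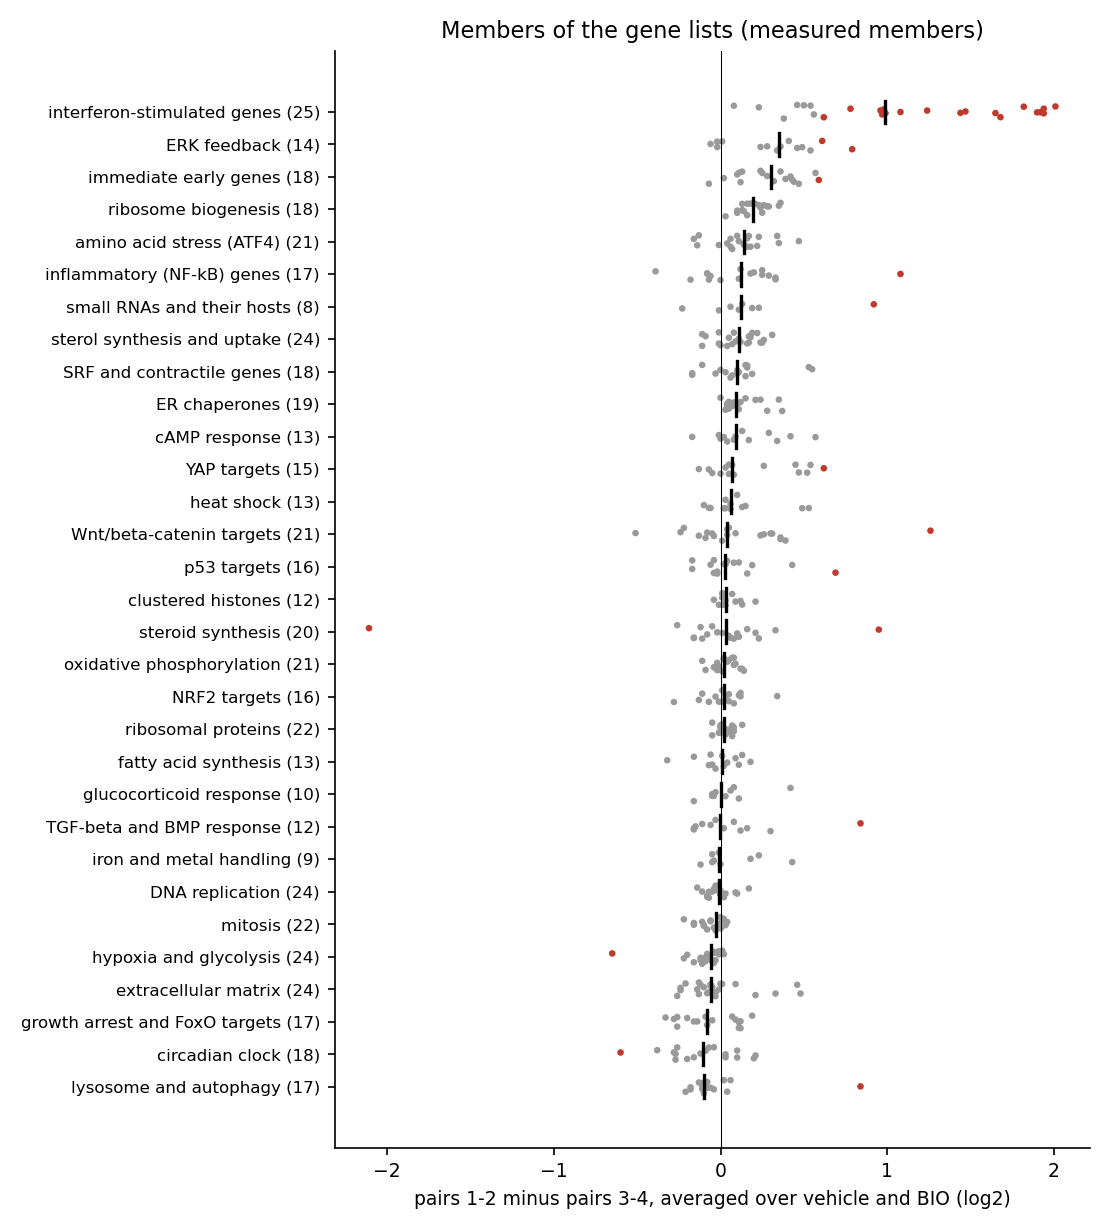
Difference between the sets for each measured member of 31 gene lists (horizontal, log2, averaged over vehicle and BIO), with the number of members in brackets. Red points met the rule, and black bars are list medians. The interferon-stimulated list has a median of 0.99, the next is ERK feedback at 0.35, and the medians of DNA replication and mitosis are −0.01 and −0.03.

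Of 7 genes of endothelin signalling, on a list written after values had been seen, 1 met the rule in each direction. Of the 7, 1 was separated upward, 3 downward and 3 in neither direction, with a median of −0.06 log2. Edn1, the vasoconstrictor peptide, read 9.1, 9.16, 7.78 and 7.36 log2 in vehicle and 8.36, 8.41, 7.23 and 6.59 in BIO, higher in pairs 1 and 2 by 1.52 ± 0.16. Ednra, its receptor, read 5.75, 5.44, 6.76 and 7.09 in vehicle and 5.37, 5.47, 5.96 and 6.46 in BIO, lower in pairs 1 and 2 by 1.06 (−1.06 ± 0.13). The sets did not overlap for either gene within a treatment. In the authors' deposited table Ednra had a ratio of Wnt over SF1 of 2.34 (unadjusted p 6.79e-05). The other receptor, Ednrb, differed by −0.06.

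Several other genes of known function were higher in pairs 1 and 2. Adh1 (1.40 ± 0.24) and Aldh1a2 (1.36 ± 0.10) encode enzymes that turn retinol into retinoic acid. Only these 2 met the rule among 15 retinoid genes, on a list written after values had been seen. Of the 15, 3 were separated upward, 1 downward and 11 in neither direction. Aldh1a2 read 7.45, 7.66, 6.32 and 5.91 log2 in vehicle and 7.09, 6.89, 5.82 and 5.62 in BIO, while Aldh1a1 (0.23) and Aldh1a3 (−0.20) of the same family did not meet the rule. Ptgs2, the inducible cyclooxygenase, was higher by 1.08 ± 0.14 and was the only one of 17 genes of the inflammatory list to meet it, with Il6 at 0.25 and Ccl2 at 0.12. Basement membrane and caveola genes among the 215 included Nid1 (0.94), Lamb1 (0.87), Cav1 (1.03, or 0.68 without pair 2) and Cavin2 (1.18). These were named after their values were seen. Gpnmb, a lysosomal glycoprotein, differed by 0.84, but by 0.48 without pair 4. Terc, the RNA of telomerase, was higher by 0.92.

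Growth genes of fetal tissue and some imprinted genes were among the 215. Of 11 fetal RNA-binding and let-7 target genes, Igf2bp1 (1.03 ± 0.14), Hmga2 (0.81 ± 0.12) and Igf2bp3 (0.59, or 0.49 without pair 4) met the rule. Igf2bp1 read 8.77, 9.2, 8.03 and 7.7 log2 in vehicle and 8.57, 8.84, 7.91 and 7.59 in BIO. Lin28a and Lin28b, which block let-7, differed by 0.05 and 0.04. Of 41 imprinted genes, 9 were separated upward, 3 downward and 29 in neither direction, with a median of 0.02 log2. The 5 that met the rule, all upward, were Zdbf2 (0.76), Snrpn (0.71), Plagl1 (0.69, or 0.52 without pair 4), Dlk1 (0.69) and Cdkn1c (0.68). H19 (−0.01), Igf2 (0.05) and Meg3 (0.10) did not, although Meg3 lies in the imprinted domain of Dlk1. Of all genes, 1.04% met the rule upward. Both lists were written after values had been seen, so their shares support nothing further.

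A gene that breaks down progesterone and a gene that makes it differed in opposite directions. Akr1c18, the reductase that inactivates progesterone, was the gene highest in pairs 3 and 4. It read 9.98, 9.33, 11.72 and 11.91 log2 in vehicle and 5.57, 5.29, 7.05 and 7.92 in BIO. The sets were apart by 2.11 (−2.11 ± 0.20), or 4.31-fold, in both treatments, and BIO lowered the gene in both. Akr1c14, another reductase of the same cluster, was lower in pairs 1 and 2 by 0.64 (−0.64), and by 0.35 (−0.35) without pair 2. The 7 others of 9 Akr1c genes lay between −0.15 and 0.02. Hsd3b1, which makes progesterone, was higher in pairs 1 and 2: it read 6.78, 5.79, 5.47 and 4.69 in vehicle and 5.42, 5.21, 4.72 and 4.52 in BIO, a difference of 0.95 ± 0.22. Of 20 steroid genes only these, Akr1c18 and Hsd3b1, met the rule (4 genes without pair 2). Cyp11a1, the first enzyme, differed by −0.08, Star, which carries cholesterol to it, by −0.26, and the corticotropin receptor gene Mc2r by 0.23, and none of these was separated in both treatments.

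The other genes highest in pairs 3 and 4 were of mixed function. Fat4, a giant cadherin of the Hippo and planar polarity pathways, read 9.03, 8.86, 9.86 and 9.81 log2 in vehicle and 7.75, 7.53, 8.73 and 9.3 in BIO, a difference of −1.13 ± 0.10. Grin2a, a glutamate receptor subunit, read 6.95, 6.74, 8.14 and 8.47 in vehicle and 4.88, 4.42, 5.22 and 5.53 in BIO (−1.09 ± 0.14). Dab1, the adaptor of reelin signalling, read 9.15, 8.5, 9.95 and 10.11 in vehicle and 6.01, 5.89, 6.66 and 6.87 in BIO (−1.01 ± 0.13). For all 3 genes pair 2 was the lowest in both treatments. Vstm2a (−1.06), the guanine deaminase gene Gda (−0.92), the phospholipase gene Plce1 (−0.91), the nodal receptor gene Acvr1c (−0.88), Plxdc1 (−0.87), the cytokine receptor gene Lifr (−0.85), Gsg1l (−0.85), Ctla2a (−0.81, or −0.42 without pair 2) and the neuropeptide receptor gene Npy1r (−0.81) completed the rule's list with Pcdhb18 (−0.95).

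Of 22 clustered beta protocadherin genes, which give neurons their surface identity, 8 were separated downward in pairs 1 and 2, where 10% of all genes were, 0 upward, and 3 met the rule, or 1 without pair 4. That list was written after values had been seen, so its share supports nothing further. Its median level was low, at 3.93 to 4.25 log2 by array, and near-identical copies can share probe signal. The 8 carried the numbers 14 and 16 to 22, and the other 14 genes lay between −0.12 and 0.03 log2. Of 18 circadian clock genes 7 were separated downward and 1 upward, where 10% of all genes were in each direction, with a median of −0.10. Npas2, a partner of Arntl, met the rule (−0.60, or −0.39 without pair 4), whereas Arntl (0.10), Per1 (0.03) and Per2 (0.03) did not differ by the rule. Egln3, an oxygen-sensing hydroxylase induced in hypoxia, was the only one of 24 hypoxia and glycolysis genes to meet it (−0.65, or −0.48 without pair 4). Of the 24, 4 were separated downward, where 10% of all genes were, 0 upward and 20 in neither direction. Without pair 2, 10 were separated downward, and without pair 3, 9 were, though fewer arrays then had to be apart.

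Genes of both directions often changed with the drug as well. Over all 4 pairs BIO lowered 116 of the 215 genes higher in pairs 1 and 2 (54.0%) and raised 47 (21.9%), and it lowered 42 of the 57 genes higher in pairs 3 and 4 (73.7%) and raised 3 (5.26%). Of all genes 3236 fell (15.6%) and 3531 rose (17.0%). Of the 10360 genes with means above the median, 23.9% fell and 28.0% rose. The set difference and the BIO change are both read from the same arrays.

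**Figure D4:**
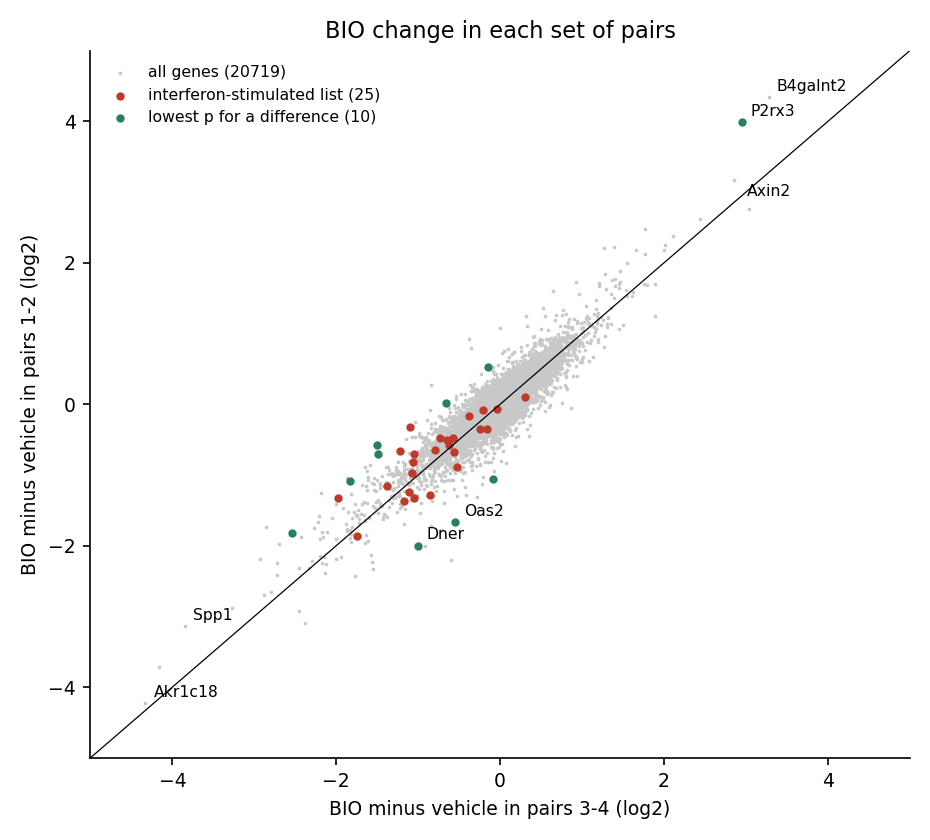
BIO minus vehicle in pairs 3 and 4 (horizontal) and in pairs 1 and 2 (vertical), in log2, 1 point a gene, with the line of equal change. The changes correlated at 0.88 over all genes, and the 10 genes with the lowest p for a difference, in green, lie off the line, the farthest being Oas2, P2rx3 and Dner.

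The last question was whether the cells of the sets answered BIO differently. The test set the mean within-pair change of pairs 1 and 2 against that of pairs 3 and 4 for all 20719 genes with limma, and 0 passed an adjusted p of 0.05 (0.0%). At an unadjusted p under 0.05 there were 1642 genes (7.93%), and the lowest adjusted p was 0.11. With an intensity trend and a robust prior in the same model 20 genes passed. The median 95% interval of a gene's difference reached 0.231 log2 to each side, so a smaller difference lay within the interval of a typical gene. The BIO changes of the sets correlated at 0.88 over all genes, with an SD over genes of 0.31 log2 in each set. Of the 320 genes that BIO changed at least 2-fold, the change was larger in pairs 1 and 2 for 139 and larger in pairs 3 and 4 for 181. Of these 115 had an unadjusted p under 0.05.

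The 10 genes with the lowest p give the size of what may differ. Dner, a Notch ligand, read 7.42, 7.32, 6.53 and 6.53 log2 in vehicle and 5.41, 5.33, 5.55 and 5.52 in BIO. Pairs 1 and 2 were higher by 0.84 in vehicle and slightly lower in BIO (−0.16). The change was thus −2.0 in pairs 1 and 2 and −1.0 in pairs 3 and 4 (difference −1.0 ± 0.09, limma p 5.3e-06, adjusted p 0.11). P2rx3, an ATP-gated channel, overlapped between the sets in vehicle and lay apart in BIO. It read 5.81, 5.55, 6.02 and 5.77 in vehicle and 9.64, 9.7, 8.98 and 8.73 in BIO, a rise of 3.99 in pairs 1 and 2 and of 2.96 in pairs 3 and 4 (adjusted p 0.168). Sema5a, a guidance protein, read 8.39, 8.55, 8.44 and 8.3 in vehicle but 7.88, 7.92, 6.86 and 6.86 in BIO (adjusted p 0.168).

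Both Oas2 and Oas3 of the interferon group were among the 10. Oas2 changed by −1.66 in pairs 1 and 2 and by −0.54 in pairs 3 and 4, and Oas3 by −1.06 and −0.09 (limma adjusted p 0.168 for each). Oas3 read 4.88 and 5.08 in vehicle in pairs 3 and 4, near its readings of 4.9 and 4.88 in BIO. The other 5 were Fgf16, Medag, Ahr, Sbsn and Cabp1, with limma adjusted p of 0.176 to 0.216. Ahr, the aryl hydrocarbon receptor for which indirubins are ligands, read 8.64, 8.81, 9.27 and 9.38 in vehicle and 9.2, 9.3, 9.11 and 9.23 in BIO. Its change was 0.52 in pairs 1 and 2 and −0.15 in pairs 3 and 4, a difference of 0.68 with a 95% interval of 0.47 to 0.88 and an adjusted p of 0.216. None of these passed.

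The genes that BIO changed most were changed in both sets. Axin2, the feedback inhibitor and standard readout of β-catenin signalling, rose by 3.18 log2 in pairs 1 and 2 and by 2.86 in pairs 3 and 4, a difference of 0.32 with a 95% interval of 0.1 to 0.54 (limma adjusted p 0.479). B4galnt2, a glycosyltransferase gene, rose by 4.34 and 3.28 (adjusted p 0.292). Akr1c18 changed by −4.23 and −4.33, although its level differed 4.31-fold between the sets, and the difference in its change was 0.1 (95% interval −0.41 to 0.61, adjusted p 0.944). Star changed by −1.57 and −2.21 (adjusted p 0.457), the cystine transporter gene Slc7a11 rose by 2.62 and 2.44 (0.789), and the Wnt antagonist gene Dkk1 changed by −2.92 and −2.46 (0.834). Among the 215 genes higher in pairs 1 and 2, 68 had an unadjusted p under 0.05 for the difference in BIO change (31.6%), and among the 57 higher in pairs 3 and 4, 23 did (40.4%), beside 7.93% of all genes, and 0 of either group passed after adjustment. The rule used the same arrays and favours genes whose arrays agree within a set. It also took in 0 of the 5179 genes with the lowest means, so these shares are a description and support nothing further.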

How the data were processed

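The authors made the deposited log2 values with RMA (background correction, quantile normalization and probe set summary), per the file headers, in the oligo package (no version given), per the submitters' processing notes. RMA compresses low signals, so differences of dim genes are understated. The authors' table also gave p-values, not adjusted, and fold changes as a ratio, per the file headers. These were used for the other experiment only. Of 28944 probe sets, 23812 had a gene symbol. The probe set with the highest mean stood for each of 20719 genes, and 1683 genes had more than 1. Of these genes 20480 matched the RefSeq gene table (GRCm38.p6), which updated 1875 symbols. Promoter sequences are RefSeq's.

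The set difference was averaged over vehicle and BIO, with an SE from limma 3.58.1 in R 4.3.3 over the 4 pair means, and no test. The BIO change used limma with pair terms, a two-sided test and p adjusted over all genes by Benjamini and Hochberg. The difference in BIO change added a treatment by set term. The titles give the pair numbers. As a check, deviations of same-numbered arrays correlated at 0.385 to 0.617. Arrays of another pair in the same set also correlated, so the check does not by itself establish the numbers. The labels do not call the pairs separate cultures, so the p-values cover the spread of these samples, part of which may be technical. Code was tested on simulated data.

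The sets, the 32 lists with 7 marker lists and 17 further lists were chosen with earlier results of these data known, and the 17 after values of this comparison were seen. Genes were named as the 15 greatest differences each way (no predicted models, clones or small RNAs), up to 4 members of a list that met the rule, the 10 lowest p for a difference in BIO change, 12 genes of great BIO change, and 2 on each side of the limit. Members of lists were also named with values, and genes of the 17 further lists outside that rule were named after their values were seen. Alternatives were the fold limit, filters on low means, averaged probe sets, cyclic loess, no block, a trend with a robust prior, and each pair left out. Some genes that the rule selects are left out of the text.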

Additional observations from a re-analysis of the deposited data

How the results depend on the processing

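The count of 272 genes that differ between the sets was 645 at a 1.3-fold limit (450 higher in pairs 1 and 2, 195 higher in pairs 3 and 4) and 62 at 2-fold (56 and 6). With each pair left out in turn it ran from 193 to 389, that of genes higher in pairs 1 and 2 from 161 to 302, and that of genes higher in pairs 3 and 4 from 32 (without pair 4) to 113 (without pair 1). Leaving out a pair leaves 1 pair in a set, so that fewer arrays must be apart. Filters on low means, averaged probe sets and cyclic loess kept these counts within 1.5 times. The 0 genes whose BIO change differed became 20 with an intensity trend and a robust prior, and 0 to 14 with a pair left out (3 without pair 1, 14 without pair 3), where the lone pair is assumed to vary like the others. Without the replicate block, 0 passed for the difference in BIO change, with a lowest adjusted p of 0.0595, and 5023 for the BIO change, against 6767 with the block. The set differences of the named genes kept their direction in 522 of 522 repeats, and their differences in BIO change in 199 of 204. The 5 that turned, none called, belonged to 4 genes whose values with a pair left out ran from −0.01 to 0.37 (Slc7a11), −0.24 to 0.44 (Akr1c18, −0.08 without pair 2), −0.17 to 1.05 (Anxa8) and −1.14 to 0.21 (Dkk1). List medians moved by more than their spread in 52 of 437 repeats. The causes were not tested. The files give no detection calls or signal over background, so which dim genes were detected is unknown.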
